A study of Mus musculus with 20 samples.

Results

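The choroid plexus genes followed here in the brains of operated mice were Ttr, Kl, Folr1, Prlr, Aqp1, F5, Slc4a5, Kcnj13, Clic6 and Otx2. They are a named list of 10 genes out of the 55487 gene entries counted in each library, and all 10 were found by symbol. The list was chosen by the levels of these genes in these same libraries, between tissues and treatments, so the levels are given below as a description. Poly(A) RNA was sequenced from 20 libraries of NMRI mice, an outbred stock, in 4 groups of 5. The groups were the hippocampus after YB-1, the hippocampus after HSP70, the cortex after YB-1 and the cortex after HSP70. YB-1, a cold shock protein, was given as 6.4 µg of recombinant protein, and HSP70, a heat shock protein, as 4 µg of human recombinant protein. Either protein was given through the nose once a day for 21 days, starting on day 14 after removal of the olfactory bulbs. All animals in the 4 groups had this operation, which serves as a surgical model of sporadic Alzheimer's disease. Age, sex and the animal behind each library are not stated in the labels, and operated animals without either protein were not analysed here.

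The choroid plexus is a folded epithelium that hangs into the ventricles of the brain, covers a core of leaky capillaries and secretes cerebrospinal fluid. Its epithelial cells move sodium, bicarbonate, chloride and water towards the ventricle, and they make carrier proteins that enter the fluid. The lateral ventricle, which holds such a plexus, lies next to the hippocampus. In bulk tissue, fewer cells of a type and less RNA per cell cannot be told apart.

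Depth was 7236195 to 10166968 assigned reads per library in the hippocampus after YB-1 and 7756835 to 13053910 after HSP70. The cortical libraries had 6414215 to 10763465 after YB-1 and 12283392 to 15148078 after HSP70, so the treatments did not overlap in depth in the cortex. Levels are TMM-scaled CPM, that is, counts set relative to the scaled depth of a library, and 3 reads corresponded to 0.201 to 0.551 CPM, depending on the library. Regional markers mostly followed the tissue labels: of 11 hippocampal markers tested, 8 were called higher in the hippocampus (adjusted p under 0.05 with edgeR) and 1 lower, and of 11 cortical markers 2 were called higher in the hippocampus and 9 lower. Wfs1, the most abundant of the hippocampal list, had a log2 fold change of hippocampus over cortex of -0.21 ± 0.16 (SE) and was not called. Fibcd1, a marker of hippocampal pyramidal cells, averaged 231 ± 70.9 CPM after YB-1 and 227 ± 55.9 CPM after HSP70 in the hippocampus, and 32.4 ± 11.7 CPM after YB-1 and 19.9 ± 4.72 CPM after HSP70 in the cortex (SD, n = 5 each). Lamp5, a marker of cortical neurons, averaged 38.0 ± 6.31 CPM after YB-1 and 39.7 ± 8.18 CPM after HSP70 in the hippocampus, and 176 ± 41.8 CPM after YB-1 and 187 ± 23.2 CPM after HSP70 in the cortex.

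All 10 genes had reads in all 10 hippocampal libraries, but at levels that differed widely between libraries of the same group. The 10 genes together took 141, 1082, 552, 743 and 394 CPM in the hippocampal libraries of YB-1 replicates 1 to 5, and 59.2, 161, 39.8, 817 and 1735 CPM in those of HSP70 replicates 1 to 5. The HSP70 group held both the lowest and the highest of these sums. The hippocampal library of HSP70 replicate 5 was among the 3 highest for 10 of the 10 genes, and that of YB-1 replicate 2 for 9 of them. HSP70 replicate 5 also had the fewest genes with a read in the hippocampus, 16889 at 7860825 assigned reads. The next fewest were in YB-1 replicate 4, with 18379 at 8390465 assigned reads. The part of this in the levels of HSP70 replicate 5 was not tested. HSP70 replicates 1, 2 and 3 were each among the 4 lowest for 10 of the 10 genes, and YB-1 replicate 1 for 9. In the cortex the sums were 10.3 to 50.0 CPM after YB-1 and 13.2 to 165 CPM after HSP70. The 165 CPM belonged to HSP70 replicate 4, and the next highest HSP70 library had 26.1 CPM. As a share of assigned reads, the 10 genes made up 0.00411% to 0.147% of a hippocampal library.

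**Figure D1:**
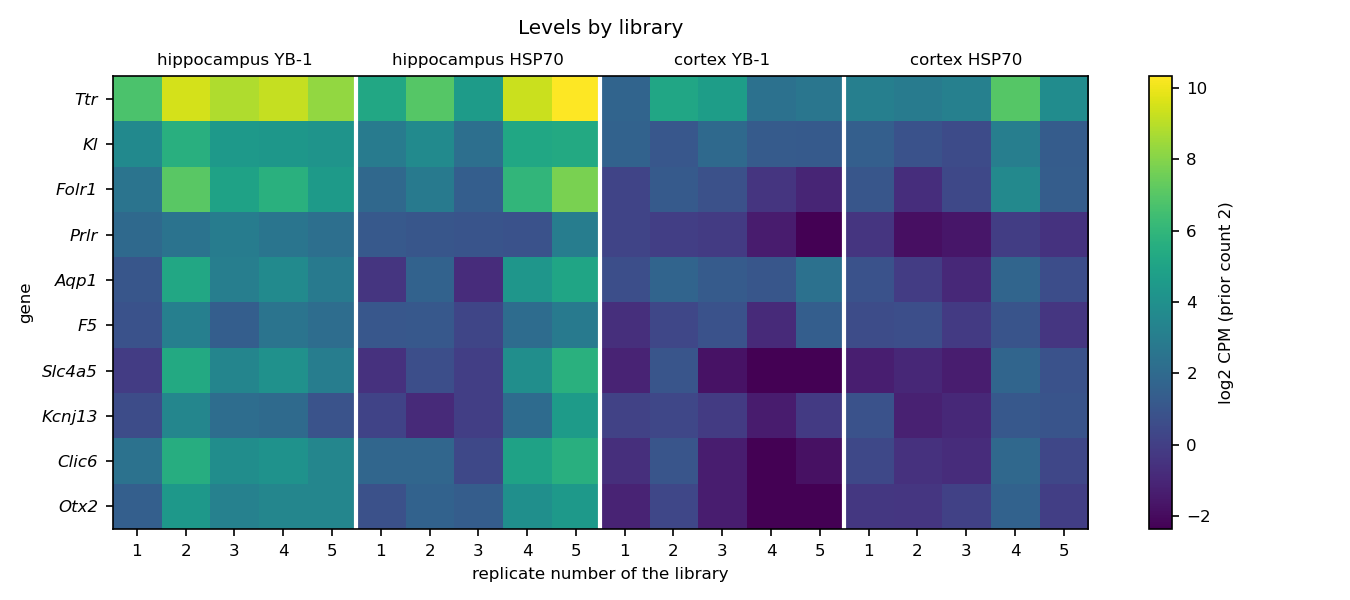
Level of each gene (rows) in each library (columns, replicate number within its group), as log2 CPM with a prior count of 2, from dark (low) to bright (high). Bright columns run through most rows together, as in hippocampal HSP70 replicate 5, hippocampal YB-1 replicate 2 and, more faintly, cortical HSP70 replicate 4.

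The secreted proteins were examined first. Ttr (ENSMUSG00000061808) encodes transthyretin, the carrier of thyroid hormone and of retinol-binding protein in cerebrospinal fluid. In the hippocampus it stood at 107, 728, 442, 599 and 305 CPM in YB-1 replicates 1 to 5, and at 37.3, 126, 24.2, 627 and 1281 CPM in HSP70 replicates 1 to 5. The HSP70 range enclosed the whole YB-1 range, and the means were 436 ± 244 CPM after YB-1 and 419 ± 542 CPM after HSP70 (SD, n = 5 each). In the cortex it stood at 3.13, 35.3, 25.9, 4.96 and 6.04 CPM after YB-1, and at 8.45, 7.36, 8.77, 128 and 13.6 CPM after HSP70. The cortical library of HSP70 replicate 4 lay above 4 of the 10 hippocampal libraries, and 7 of the 10 cortical libraries lay below all of them. Ttr alone made up 60.9% to 80.6% of the CPM of the 10 genes in a hippocampal library.

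F5 (ENSMUSG00000026579) encodes coagulation factor V, a secreted cofactor of thrombin formation. It had 1.60, 8.34, 2.53, 5.55 and 4.39 CPM in the hippocampus after YB-1, and 1.91, 2.01, 1.02, 4.16 and 7.21 CPM after HSP70. Its cortical values were 0.447, 1.09, 1.62, 0.367 and 2.55 CPM after YB-1, and 1.32, 1.41, 0.669, 1.75 and 0.581 CPM after HSP70. These are small numbers of reads, 10 to 69 per hippocampal library and 2 to 27 per cortical library. In the cortex 6 of the 10 libraries reached or passed the lowest hippocampal value, so the tissues overlapped more for F5 than for Ttr.

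The next 3 members encode receptors or a co-receptor. Folr1 (ENSMUSG00000001827), the folate receptor that carries folate across the choroid plexus epithelium, had 5.46, 133, 30.5, 52.0 and 23.2 CPM in the hippocampus after YB-1, and 3.63, 6.84, 2.55, 63.5 and 216 CPM after HSP70. The highest hippocampal library held 84.8 times the lowest, and both were HSP70 libraries. In the cortex Folr1 had 0.982, 2.17, 1.52, 0.551 and 0.283 CPM after YB-1, and 1.87, 0.414, 1.14, 11.9 and 2.40 CPM after HSP70. Again HSP70 replicate 4 was the highest cortical library, and the only one that reached the lowest hippocampal one.

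Kl (ENSMUSG00000058488) encodes klotho, a membrane protein that acts as co-receptor of FGF23 and can be shed into the fluid. Its hippocampal levels were 12.4, 50.5, 22.4, 19.9 and 18.5 CPM after YB-1, and 7.45, 13.0, 4.69, 36.9 and 40.6 CPM after HSP70. Here YB-1 replicate 2 was the highest library, and the same 3 HSP70 libraries as for Ttr and Folr1 were in the lowest 4. Its cortical levels were 2.95, 1.90, 3.74, 2.20 and 2.17 CPM after YB-1, and 2.56, 1.57, 1.27, 8.06 and 2.32 CPM after HSP70. Kl was read in every cortical library, with 12 to 106 reads.

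Prlr (ENSMUSG00000005268), the prolactin receptor, which in the plexus has been linked to the uptake of prolactin from blood, had 3.74, 5.32, 7.73, 5.82 and 4.67 CPM in the hippocampus after YB-1, and 2.10, 1.89, 1.73, 1.61 and 7.81 CPM after HSP70. Of the 5 HSP70 libraries, 4 lay below all YB-1 libraries, and replicate 5 lay above all of them. HSP70 replicate 4, among the 3 highest libraries for Ttr, was the lowest for Prlr. In the cortex it had 0.982, 0.814, 0.707, 0.184 and 0 CPM after YB-1, and 0.554, 0.0827, 0.134, 0.760 and 0.508 CPM after HSP70. The library without a Prlr read was YB-1 replicate 5, where 3 reads correspond to 0.283 CPM.

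The Prlr gene is printed here with sequence because a start window of it holds the only forkhead core found among the members. Start windows, the 250 bases before an annotated start in RefSeq for GRCm38.p6, were at hand for 7 of the 10 members, 12 windows in all; those of Ttr, Folr1 and Clic6 were not used here. These coordinates belong to GRCm38.p6, while the counts were made on GRCm39. The window of Prlr lies at chr15:10223656-10223905 on the plus strand, and capitals mark the core TGTTTAC, whose first base is at -215.
Prlr window: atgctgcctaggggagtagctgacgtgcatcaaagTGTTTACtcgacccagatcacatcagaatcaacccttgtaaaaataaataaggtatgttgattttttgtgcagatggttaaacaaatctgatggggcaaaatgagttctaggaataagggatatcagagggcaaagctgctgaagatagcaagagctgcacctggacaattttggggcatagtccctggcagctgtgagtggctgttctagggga

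The core TGTTTAC, searched on both strands (GTAAACA on the other), was in 1 of 7 members and in 3.54% of the 27025 genes of the table. It was in 3.17% of its 32851 windows, and the share among the members is that of a single gene. The match says which letters stand there and nothing of what binds.

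The next 4 members encode channels and transporters. Aqp1 (ENSMUSG00000004655), the water channel of the ventricular face of the epithelium, had 1.82, 37.4, 8.13, 12.7 and 6.91 CPM in the hippocampus after YB-1, and 0.573, 2.95, 0.408, 19.9 and 34.1 CPM after HSP70. The ratio of the highest to the lowest hippocampal library was 91.7. In the cortex Aqp1 had 1.43, 3.12, 2.22, 1.84 and 4.91 CPM after YB-1, and 1.59, 0.745, 0.335, 3.19 and 1.38 CPM after HSP70. Of the 10 cortical libraries, 9 were at or above the lowest hippocampal one, the widest overlap between tissues among the 10 members.

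Slc4a5 (ENSMUSG00000068323), a sodium bicarbonate cotransporter, had 0.749, 40.5, 10.4, 16.4 and 8.03 CPM in the hippocampus after YB-1, and 0.478, 1.42, 0.815, 14.9 and 51.2 CPM after HSP70. Its highest hippocampal library held 107 times its lowest, the widest ratio of the members. Cortical Slc4a5 was at 0.268, 1.76, 0.101, 0 and 0 CPM after YB-1, and 0.208, 0.331, 0.201, 3.19 and 1.60 CPM after HSP70. Of the 5 cortical YB-1 libraries, 4 had 3 reads or fewer.

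Kcnj13 (ENSMUSG00000079436), an inwardly rectifying potassium channel, had 1.28, 10.8, 4.27, 3.93 and 1.68 CPM in the hippocampus after YB-1, and 0.956, 0.354, 0.815, 4.02 and 24.0 CPM after HSP70. HSP70 replicate 5 alone carried more than the other HSP70 libraries together. In the cortex it had 0.893, 1.09, 0.707, 0.184 and 0.660 CPM after YB-1, and 1.59, 0.248, 0.335, 1.98 and 1.74 CPM after HSP70. Kcnj13 shares 623 exon bases, 49.1% of its exon length, with Gigyf2 on the opposite strand, and the strand setting of the counting is not stated, so these levels are uncertain. Smaller overlaps were found for F5 with Gm16548 (3.53% of its exon length), Otx2 with Otx2os1 (3.65%) and with Gm49154 (3.98%), and Prlr with Gm21973 (1.32%).

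Clic6 (ENSMUSG00000022949), a member of the chloride intracellular channel family, had 5.14, 46.5, 14.3, 16.8 and 10.8 CPM in the hippocampus after YB-1, and 3.34, 3.30, 1.12, 30.4 and 50.5 CPM after HSP70. The 3 lowest HSP70 libraries lay below all YB-1 libraries, and the other 2 lay above at least 4 of the 5. Cortical Clic6 was at 0.447, 1.76, 0.202, 0 and 0.0943 CPM after YB-1, and 1.11, 0.496, 0.401, 3.57 and 1.09 CPM after HSP70.

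The remaining member, Otx2 (ENSMUSG00000021848), encodes a homeodomain transcription factor that choroid plexus cells need to form and that they also secrete. It had 2.57, 21.2, 9.07, 10.7 and 10.7 CPM in the hippocampus after YB-1, and 1.53, 2.95, 2.45, 15.6 and 22.8 CPM after HSP70. Its highest libraries were again HSP70 replicate 5 and YB-1 replicate 2, and its lowest was HSP70 replicate 1. In the cortex it had 0.268, 1.09, 0.202, 0 and 0 CPM after YB-1, and 0.624, 0.579, 0.870, 2.89 and 0.799 CPM after HSP70. HSP70 replicate 4 was the highest cortical library for Otx2 too.

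A start window of Otx2 itself was the only member window with TAATCC, the core read by OTX2 and related homeodomain proteins. The stretch shown is chr14:48665303-48665332 on the minus strand of GRCm38.p6, with GGATTA, the core on the other strand, in capitals. It is kept to 30 bases because this window lies within annotated exons of other Otx2 transcripts.
Otx2 site: cgtgtgcccctcGGATTAtctcgttagttt

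TAATCC was in 1 of 7 members, against 7.21% of the 27025 genes and 6.25% of the 32851 windows. The other members with a window, namely Kl, Prlr, Aqp1, F5, Slc4a5 and Kcnj13, did not hold these letters there.

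**Figure D2:**
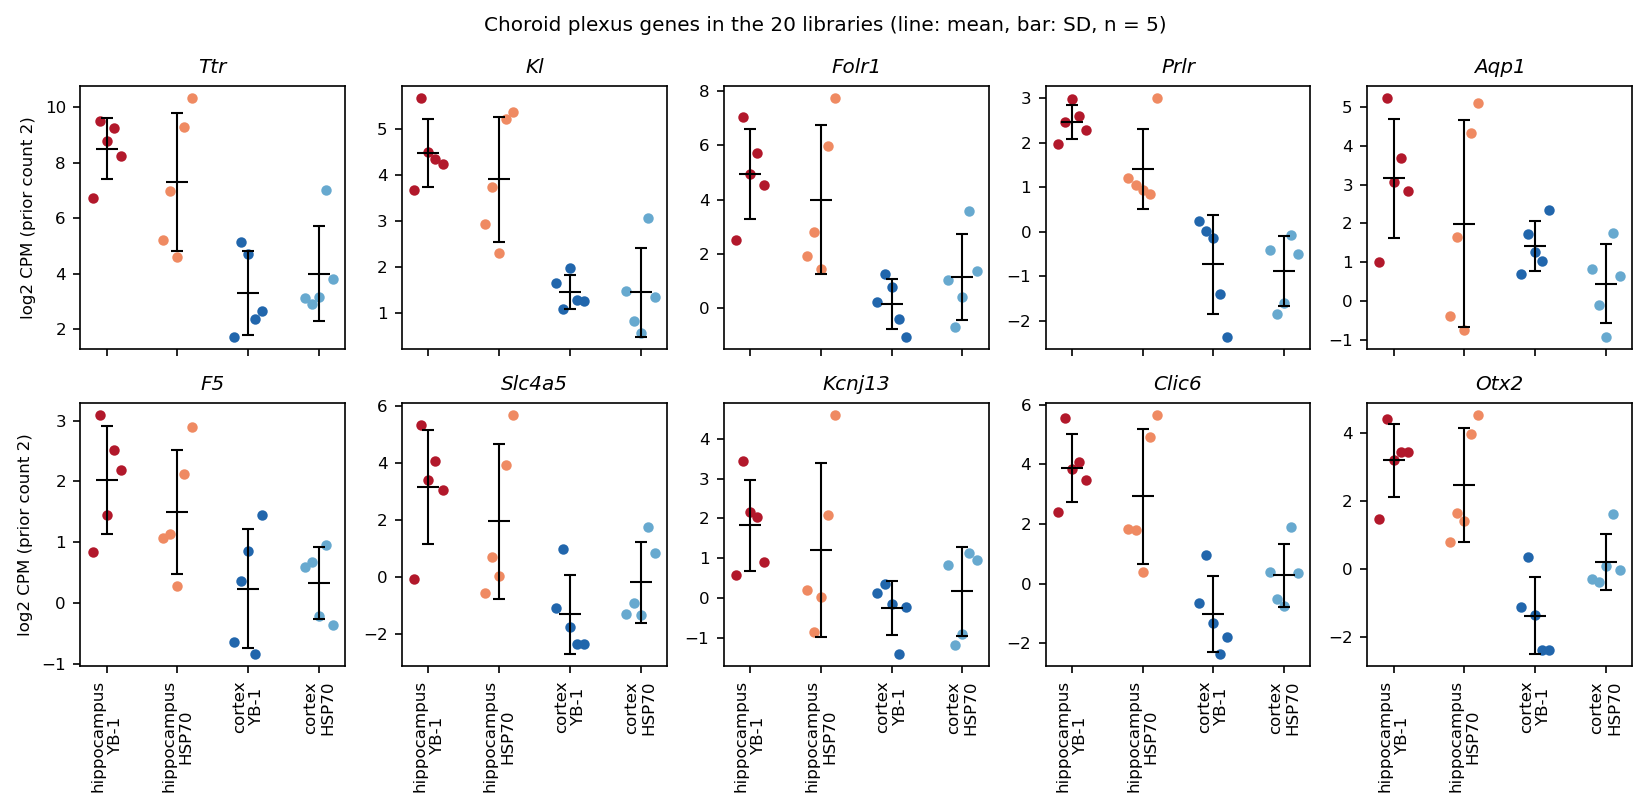
Level of each gene in the 20 libraries (points, left to right replicates 1 to 5), as log2 CPM with a prior count of 2, by tissue and treatment; lines are means and bars SD (n = 5). The hippocampal HSP70 points of Ttr and Folr1 enclose the YB-1 points, while for Kl, Aqp1 and F5 the highest point is YB-1 replicate 2. The cortical HSP70 group shows 1 high library, replicate 4, for Ttr, Kl, Folr1, Clic6 and Otx2 among others.

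Levels can be compared between genes only per kilobase of exon. On that scale the hippocampal mean over 10 libraries was 360 CPM per kb for Ttr and 23.4 for Folr1. These were first and second in each of the 10 hippocampal libraries. Aqp1 at 4.75, Clic6 at 4.66 and Kcnj13 at 4.10 CPM per kb followed, then Slc4a5 at 2.50, Kl at 2.43 and Otx2 at 2.36, and last F5 at 0.521 and Prlr at 0.277. Within each of the 2 middle trios the means differed by less than the spread between libraries, so their order is not fixed by these data. In the cortex the order began with Ttr at 20.3, Folr1 at 1.01 and Aqp1 at 0.790 CPM per kb and ended with Prlr at 0.0308.

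In the hippocampus, the ratio to Ttr spanned a narrower range over the 10 libraries than CPM for Folr1, Aqp1, Clic6, Otx2, Kl, Slc4a5 and Kcnj13, and a wider one for F5 and Prlr. Per 1000 reads of Ttr, Folr1 had 51.2 to 183 reads in the 10 hippocampal libraries, a range of 3.58-fold, while its CPM ranged 84.8-fold. Aqp1 had 15.4 to 51.3 reads per 1000 of Ttr, a range of 3.34-fold, and Clic6 had 26.2 to 89.7, a range of 3.42-fold. Otx2 ranged 5.66-fold on this scale, Kl 6.31-fold and Slc4a5 7.93-fold. F5 ranged 9.11-fold, against 8.19-fold in CPM. Kcnj13 had 2.81 to 33.6 reads per 1000 of Ttr. Prlr had 2.56 to 71.4 reads per 1000 of Ttr, a range of 27.8-fold, against 4.86-fold in CPM. The hippocampal library with the fewest reads had 3 for Kcnj13, 4 for Aqp1, 5 for Slc4a5, 10 for F5, 11 for Clic6, and 16 for both Otx2 and Prlr, so counting error enters all of these ranges. In the cortex the ratio range was 6.70-fold for Folr1, against 41.9-fold in CPM, but it was wider than that of CPM for Aqp1 (32.5-fold against 14.7-fold), F5 (30.8-fold against 6.94-fold), Kl (17.5-fold against 6.34-fold) and Kcnj13 (18.4-fold against 10.8-fold). The remaining members were at 0 in at least 1 cortical library.

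**Figure D3:**
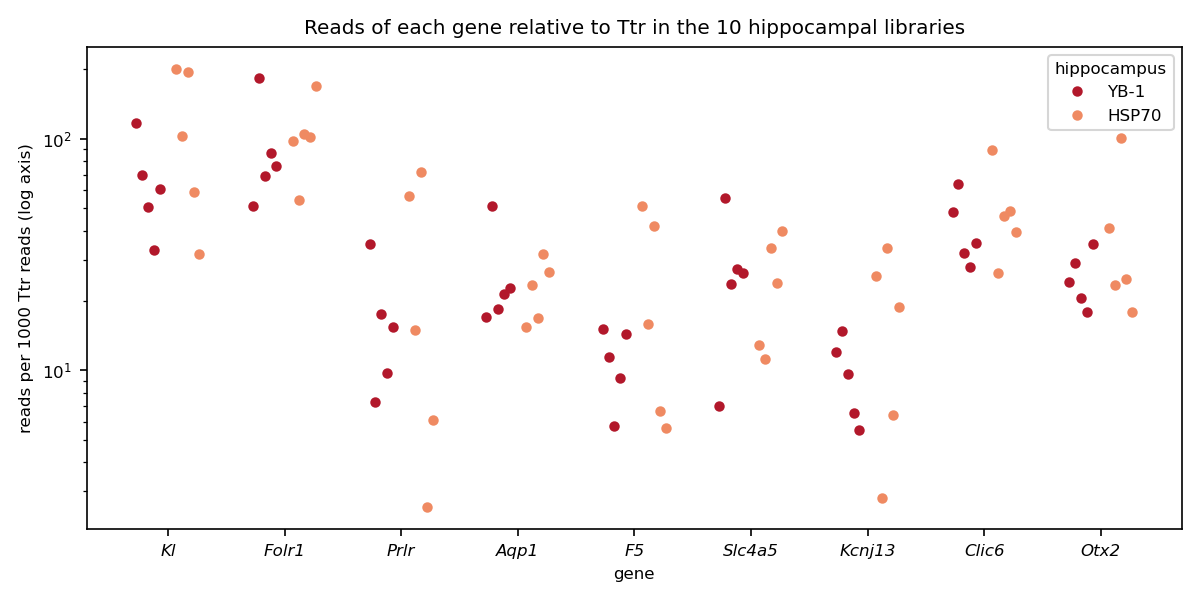
Reads of each gene per 1000 reads of Ttr (log axis) in the 10 hippocampal libraries, YB-1 left of HSP70 within each gene. The points of Folr1, Aqp1 and Clic6 cover 3.34-fold to 3.58-fold, while those of Prlr cover 27.8-fold.

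Between the tissues, all 10 genes were higher in the hippocampus than in the cortex. In a model of all 4 groups, edgeR's quasi-likelihood test with Benjamini-Hochberg adjustment over 14616 genes called 10 of 10 members higher in the hippocampus at an adjusted p under 0.05. Of all genes tested, 15.9% were called in either direction and 8.55% were called higher in the hippocampus. The members were listed with their tissue difference known, and some of them pass the filter on low counts only through the hippocampal libraries, so nothing is read from this count. The log2 fold change of hippocampus over cortex was largest for Folr1 at 4.75 ± 0.95 (SE), Clic6 at 4.48 ± 0.78, Slc4a5 at 4.42 ± 1.005 and Ttr at 4.26 ± 0.87. It was 4.04 ± 0.63 for Otx2, 3.04 ± 0.42 for Prlr, 2.96 ± 0.44 for Kl, 2.63 ± 0.73 for Aqp1, 2.43 ± 0.68 for Kcnj13 and 1.66 ± 0.38 for F5. The median over the members was 3.54, and over all genes tested 0.00064. With limma-voom and library quality weights 6 of the 10 were called, and Folr1, Aqp1, Slc4a5 and Kcnj13 were not.

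Every hippocampal library lay above every cortical library for Prlr only, with a lowest hippocampal value of 1.61 CPM and a highest cortical value of 0.982 CPM; of all genes tested, 1.62% were separated in this direction. Same-numbered libraries of the 2 tissues were also compared as pairs. This asks less of a gene than comparing every library of 1 tissue with every library of the other. The members were listed with their tissue difference known and the share over all genes was not counted, so nothing is read from these counts. The hippocampal library was the higher in 10 of 10 pairs for 8 members, and in 9 of 10 for Aqp1 and for Kcnj13. For Ttr the hippocampal level was 2.77 to 121 times the cortical level of the same pair, and for Folr1 1.94 to 94.4 times. For Kl it was 2.91 to 26.6 times, for Aqp1 0.360 to 24.7 times and for F5 1.43 to 15.1 times.

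Between the treatments no member was called in the hippocampus. All 10 members were tested there, 0 of them passed, and so did 0.0% of the 13723 genes tested with edgeR; 329 genes had an unadjusted p under 0.05, and DESeq2 and limma-voom also called 0 genes, with 390 and 688 at an unadjusted p under 0.05. The ranges of the treatments overlapped for 10 of 10 members, while 0.474% of all genes had ranges that did not overlap. The log2 fold change of YB-1 over HSP70 was 0.057 ± 1.08 for Ttr, 0.48 ± 0.51 for F5, -0.25 ± 1.30 for Folr1 and 0.27 ± 0.62 for Kl (SE). Prlr had 0.89 ± 0.43, with an unadjusted p of 0.0572 in the edgeR model and an adjusted p of 1. The values were 0.22 ± 1.18 for Aqp1, 0.17 ± 1.31 for Slc4a5, -0.43 ± 1.09 for Kcnj13, 0.086 ± 1.02 for Clic6 and 0.27 ± 0.79 for Otx2. Their median was 0.19, against -0.0030 over all genes tested.

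The hippocampal folds of all members but F5 and Prlr changed sign when some single library was left out. F5 stayed at 0.13 to 0.95 and Prlr at 0.72 to 1.56. Without HSP70 replicate 5, Ttr had a log2 fold change of 1.10, Folr1 of 1.33, Kcnj13 of 1.43, Slc4a5 of 1.73 and Prlr of 1.56. Without YB-1 replicate 2, Folr1 had -1.07, Kcnj13 -1.09, Aqp1 -0.64, Slc4a5 -0.62 and Clic6 -0.59. No member passed the test in any of these fits. The standard errors of 0.43 to 1.31 set how large a difference could have been seen, and a p above the threshold does not show that the treatments act alike.

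In the cortex 6 of the 10 members had enough reads to be tested between treatments, and Prlr, Slc4a5, Clic6 and Otx2 did not. None of the 6 was called, nor were any of the 14114 genes tested with edgeR (0.0%); 774 genes had an unadjusted p under 0.05, and DESeq2 called 4 genes and limma-voom 2, none of them a member. The ranges of the treatments overlapped for 10 of 10 members, and 0.829% of all genes had ranges that did not. The log2 fold change of YB-1 over HSP70 was -1.14 ± 1.10 for Ttr, 0.13 ± 0.50 for F5, -1.68 ± 0.82 for Folr1, -0.27 ± 0.44 for Kl, 0.91 ± 0.49 for Aqp1 and -0.69 ± 0.57 for Kcnj13 (SE). Without HSP70 replicate 4 these became 0.65 for Ttr, -0.41 for Folr1, 0.43 for Kl and 1.41 for Aqp1. The treatments differ in depth in the cortex, and its part in these values was not tested.

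Whether the treatments differed by another amount in the hippocampus than in the cortex was tested as an interaction. None of the 10 members was called, and 0.0% of 14616 genes were; 227 genes had an unadjusted p under 0.05 with edgeR, and DESeq2 and limma-voom also called 0, with 276 and 302 genes at an unadjusted p under 0.05. The interaction on the log2 scale was positive for 9 of the 10 members, from 0.26 ± 1.32 for Kcnj13 to 2.17 ± 1.27 for Otx2 (SE), and it was -0.69 ± 1.41 for Aqp1. Of all genes tested, 48.6% were positive. Prlr, Slc4a5, Clic6 and Otx2 had too few reads to be tested in the cortex alone. Otx2 had only 0 to 8 reads per cortical YB-1 library. The members also share the same libraries, so their signs are not separate observations and nothing is read from this count.

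**Figure D4:**
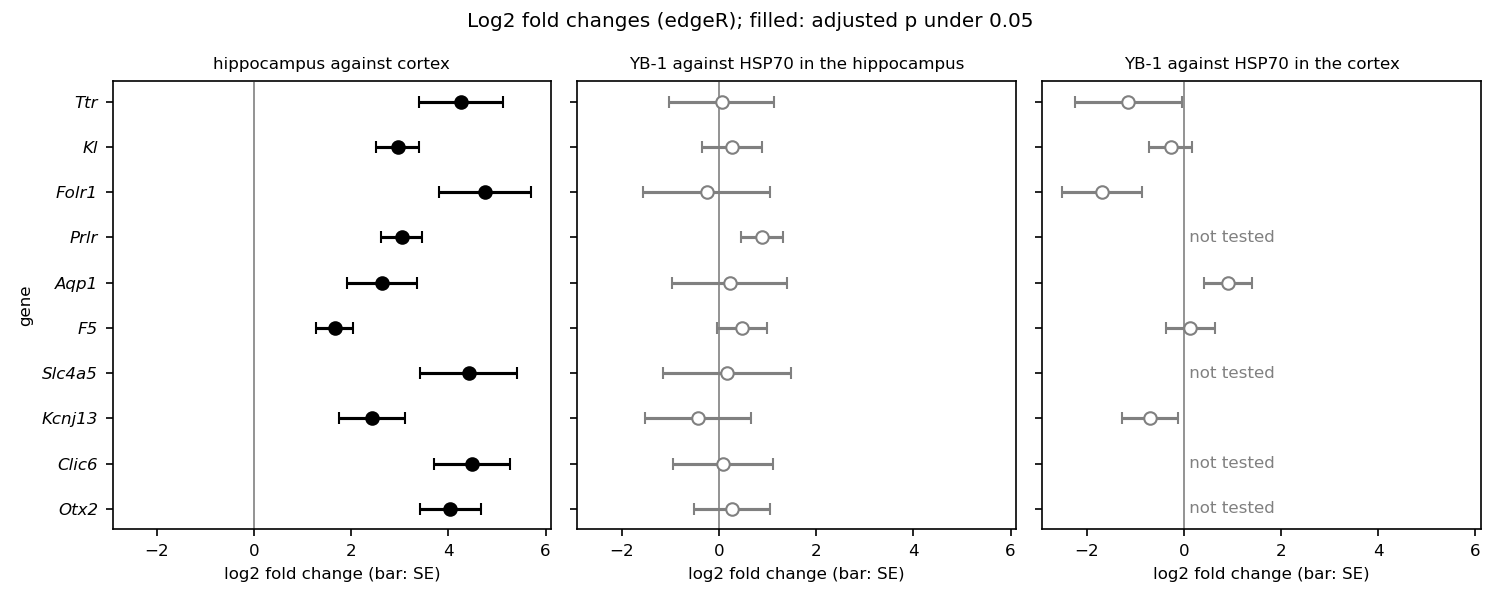
Log2 fold change with its SE (bars) of each gene for hippocampus against cortex, for YB-1 against HSP70 in the hippocampus and for YB-1 against HSP70 in the cortex; filled points have an adjusted p under 0.05 in edgeR. All 10 points of the first panel lie right of 0 and are filled, and no point of the other panels is; 4 genes were not tested in the cortex.

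To see which other genes varied with the members, each gene's log2 CPM was taken as deviation from the mean of its group and correlated over the 20 libraries with the mean deviation of the 10 members. These correlations are descriptions. The 20 libraries entered as single points, although their numbers were taken to pair the tissues, so the points are not independent. A member's own value also enters the mean it is compared with. Among the members, Pearson's r was 0.984 for Folr1, 0.963 for Clic6, 0.956 for Slc4a5, 0.937 for Otx2, 0.927 for Ttr and 0.920 for Aqp1. It was 0.894 for both Kcnj13 and Kl, 0.726 for F5 and 0.624 for Prlr. Leaving out the 2 libraries farthest from the median, hippocampal HSP70 replicates 5 and 3, these values were 0.974 for Folr1, 0.895 for Ttr, 0.602 for F5 and 0.485 for Prlr.

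Of the 14594 other genes compared, the most alike was Mfrp, a membrane frizzled-related protein, with r = 0.937 (Spearman's rho 0.879). Sostdc1, a secreted inhibitor of BMP and Wnt signalling, had 0.931, and Enpp2, the enzyme autotaxin that makes lysophosphatidic acid, 0.924. Next were Steap1, a metalloreductase family member, at 0.918, Prr32 at 0.911, Lbp, the lipopolysaccharide-binding protein, at 0.908 and Kcne2, a potassium channel subunit, at 0.907. Tmem72 had 0.896, the lactate transporter gene Slc16a8 0.872, the tight junction gene Cldn2 0.858 and the lipid transporter gene Abca4 0.833. All of these stand on a list of 40 other choroid plexus genes, which was drawn up with earlier results of these libraries known. Of the 15 most alike genes, 4 do not: 2900040C04Rik at 0.917, the zinc transporter gene Slc39a4 at 0.900, Wdr86 at 0.880 and the acyl-CoA dehydrogenase family gene Acad10 at 0.836. At the other end were the adhesion molecule gene Ncam2 at -0.862, Phyhipl at -0.859, 9430021M05Rik at -0.835, the receptor gene Gpr83 at -0.820 and the VIP receptor gene Vipr1 at -0.812. Without the same 2 libraries, Mfrp had 0.932, Enpp2 0.875 and Wdr86 0.795, and Ncam2 had -0.816.

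**Figure D5:**
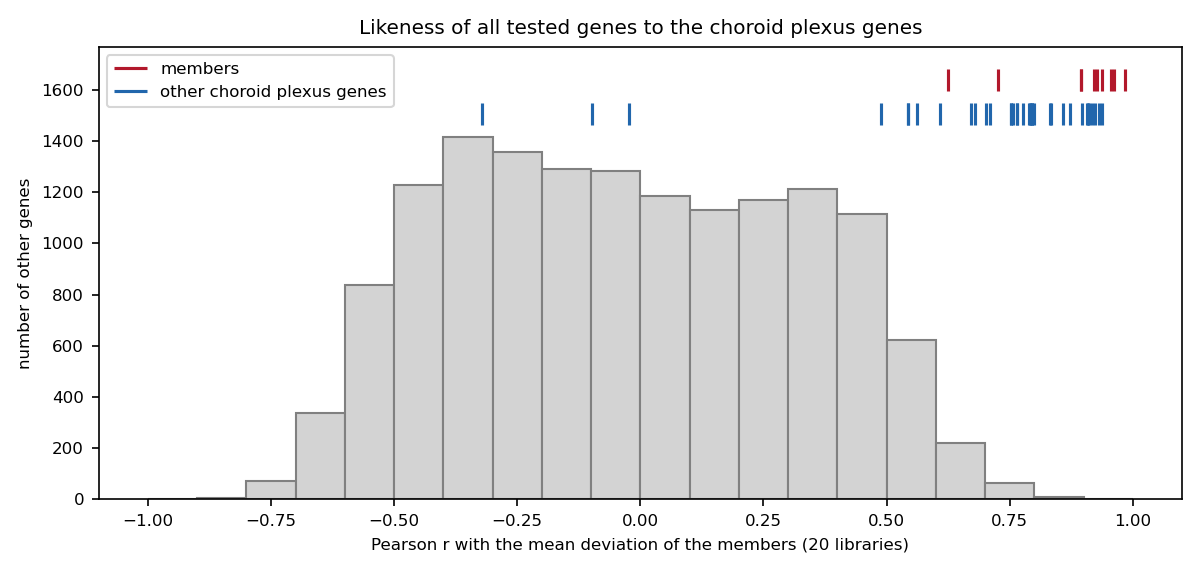
Number of other genes (grey bars) by Pearson's r with the mean deviation of the 10 members over 20 libraries; red ticks are the members and blue ticks the 36 other choroid plexus genes compared. Most blue ticks lie to the right of nearly all grey genes, with Slc39a12, Htr2c and Trpm3 near or below 0.

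The list of other choroid plexus genes had 39 matched symbols, of which 36 could be compared. As its genes were chosen with earlier results of these libraries known, their likeness to the members is a description and no separate support. Their median r was 0.783, against -0.0435 over all 14594 genes, and 26 of them were among the 100 most alike genes. An r over 0.8 was found for 13 of the 36, and for 0.151% of all genes, which is 22 genes. The 3 lowest of the list were Slc39a12, a zinc transporter gene, at -0.32, Htr2c, a serotonin receptor gene that neurons also use, at -0.098 and Trpm3, a cation channel gene, at -0.023. Within the hippocampus alone, r ran from -0.452 for Slc39a12 to 0.980 for Tmem72 over the 36 genes. Within the cortex it ran from -0.277 for Spint2 to 0.859 for Mfrp, and for most of the list it was lower than in the hippocampus. Tmem72 had 0.550 in the cortex, and in the hippocampus Mfrp had 0.973 and Spint2 0.964. The median of 0.783 over both tissues therefore does not describe the cortex alone.

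Between the tissues, 29 of the 36 other choroid plexus genes tested were called higher in the hippocampus and 0 lower, with a median log2 fold change of 1.65. Of all genes tested, 8.55% were called higher in the hippocampus, and the median log2 fold change was 0.00064. This list too was drawn up with earlier results of these libraries known. Its genes with few reads, such as Wfdc2 at a mean of 1.02 CPM, may pass the filter only through the hippocampal libraries. Nothing is therefore read from this count. Mfrp had a log2 fold change of 5.37 ± 1.10, Tmem72 of 4.88 ± 1.01, Steap1 of 4.68 ± 1.03 and Cldn2 of 3.89 ± 0.88 (SE). The abundant members of the list differed less. Enpp2 averaged 355 ± 249 CPM after YB-1 and 347 ± 332 CPM after HSP70 in the hippocampus, and 95.0 ± 19.9 CPM after YB-1 and 116 ± 37.7 CPM after HSP70 in the cortex (SD, n = 5 each). Slc29a4, a monoamine transporter gene, had a log2 fold change of 1.50 ± 0.23, Slc4a2, an anion exchanger gene, of 1.06 ± 0.32, Spint2, a protease inhibitor gene, of 0.71 ± 0.20 and Vat1l of 0.46 ± 0.16. Ace, the angiotensin-converting enzyme gene, had 0.96 ± 0.36, Igfbp2, an IGF-binding protein gene, 0.19 ± 0.25 and Slc39a12 0.072 ± 0.12, and these 3 were not called. Between the treatments 0 of 35 list members tested were called in the hippocampus and 0 of 25 in the cortex.

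Markers of neighbouring tissues were summed in the same libraries. Ependymal cells, the ciliated lining of the ventricles, were followed with 15 markers. Their sums in the hippocampus were 52.2, 130, 79.7, 80.4 and 73.4 CPM in YB-1 replicates 1 to 5, and 52.0, 45.3, 49.7, 111 and 150 CPM in HSP70 replicates 1 to 5. The 3 libraries with the highest ependymal sums were also the 3 with the highest sums of the choroid plexus members. In the cortex the sums were 22.0 to 41.3 CPM after YB-1 and 15.7 to 31.7 CPM after HSP70, with Dnah12 and Sntn at 0 in the HSP70 group. Of 11 ependymal markers tested, 10 were called higher in the hippocampus and 0 lower, against 8.55% of all genes tested called higher. Markers with few reads may pass the filter only through the hippocampal libraries. This and the other marker lists were drawn up with earlier results of these libraries known, so nothing is read from such counts. Foxj1, the master regulator of motile cilia, had a log2 fold change of 1.88 ± 0.24 and Rsph1, a radial spoke gene, of 1.02 ± 0.29. The part of these cells in the levels of the members was not tested.

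The 12 markers of thalamus and habenula, which border the hippocampus, gave hippocampal sums of 179, 208, 449, 193 and 370 CPM after YB-1 and 208, 246, 253, 577 and 234 CPM after HSP70. HSP70 replicate 4 was highest here, and HSP70 replicate 5, the highest for the members, was in the middle. In the cortex the sums were 107 to 133 CPM after YB-1 and 124 to 134 CPM after HSP70. Of these 12, 6 were called higher in the hippocampus and 1 lower, with Calb2 at a log2 fold change of 2.26 ± 0.14 and Prkcd at 2.02 ± 0.31. Meningeal fibroblast markers, 17 in number, summed to 750.4 to 1371 CPM after YB-1 and 1094 to 2241 CPM after HSP70 in the hippocampus, and to 1754 to 2596 CPM after YB-1 and 1488 to 2856 CPM after HSP70 in the cortex. Ptgds, a prostaglandin D synthase gene, alone averaged 815 ± 239 CPM after YB-1 and 1328 ± 366 CPM after HSP70 in the hippocampus. In the cortex it averaged 1635 ± 333 CPM after YB-1 and 1796 ± 504 CPM after HSP70 (SD, n = 5 each). Most of the summed CPM was thus this 1 gene, so the sums do not measure the amount of meningeal tissue. The highest hippocampal sum was that of HSP70 replicate 3, the library with the lowest sum of the choroid plexus members. Of the 17, 1 was called higher in the hippocampus and 6 lower, Ptgds among them at -0.72 ± 0.16. Slc13a3 had -0.22 ± 0.13 and was not called. The part of these tissues in the levels of the members was not tested.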

How the data were processed

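Poly(A) RNA of 20 libraries, 4 groups of 5, was measured as whole-number counts of reads per gene, deposited by the authors with 1 file per library. Trimmomatic, STAR and featureCounts with GRCm39 were used, per the submitters' processing notes; the sources used here do not give versions, annotation release or strand setting. The 12 summary entries naming no gene were left out (reads in no gene 2.45% to 4.58%, ambiguous reads 4.12% to 4.58%). Symbols and exon lengths came from GENCODE M21 by identifier, matching 99.4% of gene entries. The members and all lists (166 of 169 symbols matched) were chosen with earlier results of these data known.

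The test was that of edgeR 4.0.16 (R 4.3.3; TMM, filterByExpr, robust quasi-likelihood fit, two-sided tests, Benjamini-Hochberg adjustment over all genes tested, threshold 0.05), after a check on simulated counts. Treatments were compared within each tissue, and tissues and the interaction in 1 model of 4 groups. Alternatives were DESeq2 1.42.0, its size factors in edgeR, no TMM, every gene with at least 1 read, limma 3.58.1 voom with quality weights, a replicate block and leaving out each library. SE are the log2 fold change over the root of its F statistic. CPM are TMM-scaled; log2 CPM use a prior count of 2.

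No library was a duplicate (chi-square per degree of freedom at least 10.1). Libraries of a group are separate samples in the labels, which name no animals, so p-values measure the spread between these samples. Deviations of same-numbered libraries from their group means over 14616 genes correlated at 0.198 to 0.624 between tissues. The correlation was over 0.1 in 10 of 10 pairs of tissues and in 4 of 10 between treatments, where the highest was 0.496. The own number correlated best in 9 of 10 pairs of tissues and in 3 of 10 between treatments. Hippocampal YB-1 replicate 1 correlated best with cortical replicate 5. The numbers were taken to pair the tissues, which the labels do not state. Genes named are all members, the 8 most abundant of the other choroid plexus genes, the 15 genes most and 5 least alike, and the 2 most abundant of each other marker list, except a gene that is not reported here; further genes are named from these lists as examples, chosen after their values were seen. Promoter windows came from RefSeq (GRCm38.p6).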

Additional observations from a re-analysis of the deposited data

Results flagged for a closer look

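Within groups of 5 libraries, a library was noted where its gap to the nearest other library on the log2 CPM scale, divided by the range of the group, exceeded Dixon's 95% critical value for 5 libraries. This happened in 3 of the 40 groups of gene, tissue and treatment, and chance gives about 1 in 20. Prlr in the hippocampus after HSP70 had a ratio of 0.837: replicate 5 stood at 7.81 CPM, and the other 4 libraries lay between 1.61 and 2.10 CPM. Ttr in the cortex after HSP70 had a ratio of 0.786, with replicate 4 at 128 CPM and the others between 7.36 and 13.6 CPM. Otx2 in the cortex after HSP70 had a ratio of 0.769, with replicate 4 at 2.89 CPM, which is 38 reads, and the others between 0.579 and 0.870 CPM. Both cortical values belong to the same library, so they are not independent of each other.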

How the results depend on the processing

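The count of members called between hippocampus and cortex was 10, and it stayed at 10 with DESeq2, with its size factors in edgeR, without TMM, with the replicate block and without each library in turn. With every gene of at least 1 read tested it was 9 (Kcnj13 at an adjusted p of 0.0501 in edgeR), and with limma-voom and quality weights it was 6; the cause was not tested. The fits between treatments and for the interaction called 0 members under all of these alternatives, but signs moved. In the hippocampus, the log2 fold change of Folr1 was 1.66 with limma-voom and 0.94 with the replicate block, and that of Kcnj13 was 1.20 and 0.64 in these fits. In the cortex Kl had 0.020 with the replicate block and F5 had -0.18 with limma-voom, and the interaction of Aqp1 was 0.92 with limma-voom. The block changed no call of a member. Its numbers were taken to pair the tissues but not the treatments. Leaving out 1 library at a time turned the sign of 23 of 100 fits in the hippocampus, 5 of 57 in the cortex, 8 of 200 interaction fits and 0 of 200 tissue fits. The hippocampal ranges were -0.26 to 1.10 for Ttr, -0.16 to 0.66 for Kl, -1.07 to 1.33 for Folr1, -0.64 to 1.12 for Aqp1, -0.62 to 1.73 for Slc4a5, -1.09 to 1.43 for Kcnj13, -0.59 to 0.93 for Clic6 and -0.12 to 0.91 for Otx2. The cortical ranges were -1.72 to 0.65 for Ttr, -0.47 to 0.43 for Kl and -0.34 to 0.36 for F5. Those of the interaction were -0.59 to 2.24 for Ttr, -0.16 to 0.92 for Kl, -1.55 to 0.22 for Aqp1, -0.0076 to 0.82 for F5 and -0.40 to 2.14 for Kcnj13. Group means of CPM moved by less than 1 SD when scaled to total assigned reads. Few reads limit the cortex, where 4 members were not tested between treatments and up to 4 of 5 YB-1 libraries had 3 reads or fewer of a gene, although its libraries were not the shallower ones throughout.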

Other observations

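Partners of the members in transport and signalling, such as pump subunits and ligands, formed a list of 25 genes, of which 20 were tested between tissues. Of these, 6 were called higher in the hippocampus and 2 lower, with a median log2 fold change of 0.24. Their abundant genes also serve other brain cells: Atp1b1, a subunit of an ion pump, had a log2 fold change of 0.17 ± 0.12 (SE) between hippocampus and cortex. The r of Atp1b1 with the choroid plexus members over the 20 libraries was -0.50. Proc was at 0 in all 4 groups.

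Of the other marker lists, the cortical one had Rasgrf2 at a log2 fold change of hippocampus over cortex of -1.21 ± 0.13 (SE). The striatal list had 2 called higher and 2 lower of 12, with Ppp1r1b at -0.54 ± 0.25 and Penk at 0.025 ± 0.22, neither called. Its hippocampal sums were 272 to 379 CPM after YB-1 and 278 to 487 CPM after HSP70. The 487 CPM belonged to HSP70 replicate 5, also the highest for the choroid plexus members. With the members over the 20 libraries, Ppp1r1b had an r of 0.50 and Penk of -0.54. The part of this tissue in the levels of the members was not tested. Among endothelial markers 0 of 7 were called, with Cldn5 at -0.20 ± 0.12 and Flt1 at -0.46 ± 0.16, and among erythrocyte markers 0 of 4, with Hba-a1 at -0.53 ± 0.45 and Hbb-bs at -0.52 ± 0.40. None of these lists had a gene called between treatments in either tissue.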
